A study of Bos taurus with 43 samples.

Results

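Holstein cattle kept as negative controls were compared with cross-breed negative controls by the RNA of a foreleg muscle, the biceps brachii. The 18 animals of the comparison were all samples labelled as negative controls, out of 43 in the series. The 13 Holstein controls (C17, C18, C20 to C24, C41 and C44 to C48) were males of 13 to 18 months. The 5 cross-breed controls (K7, K8, K10, K11 and K12) were male Charolais × Limousine crosses of 18 months. Both sets were negative controls taken over from earlier controlled experiments, the cross-breed animals being lighter by the study's description. The labels of the controls give no breed, so that breed follows the study's text, which describes the sets in its methods and ties the letters C and K to them in a figure legend. The other 25 animals were 4 animals suspected of corticosteroid treatment and 21 commercial animals of unknown status, and enter here only as levels set beside the controls. Each animal was 1 array of a single-colour bovine oligonucleotide platform, so that p-values measure the spread between animals.

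The Holstein arrays lay on 7 slides scanned on 4 days by 1 scanner, and the cross-breed arrays on 4 slides scanned on 3 days by 2 scanners. The sets had no slide, scanner or day of scanning in common. Breed therefore cannot be told apart from slide, scan day, scanner, age, herd of origin or experiment, and "Holstein" and "cross-breed" below name the 2 sets of arrays with everything that differed between them. The other 25 arrays were scanned by the Holstein scanner, on slides and days of their own. The median local background was 41 to 45 intensity units on the Holstein arrays and 50 to 72 on the cross-breed arrays (exact two-sided permutation test over 8568 splits, p = 1.17e-04, the smallest p these allow). The share of gene spots well above background was 67.7% ± 3.62 (SD, n = 13) in Holstein and 67.2% ± 3.96 (SD, n = 5) in cross-breed animals (exact permutation test, p = 0.785). The mean log2 signal of 10 spike-in RNAs, added alike to every sample, was 9.79 in Holstein and 10.64 in cross-breed arrays before normalization (exact permutation test, p = 5.84e-04) and 10.10 and 9.96 after it (p = 0.353).

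Skeletal muscle is built of slow fibres, which burn fat and sugar in mitochondria, and fast fibres, which lean on glycogen. Fibres share the tissue with fat cells, connective tissue, vessels, nerve and blood cells, and a bulk sample measures all of them together. Holstein is a dairy breed, whereas Charolais and Limousine are heavily muscled beef breeds. Muscle stores energy as glycogen and as fat between fibres, and fasting, stress hormones and growth inhibitors such as myostatin all act on its transcription. The label of muscle fitted the arrays: all 11 slow-fibre genes measured, among them the troponin TNNC1 (18.2 to 18.8 in Holstein and 17.7 to 18.5 in cross-breed animals), were well above background on every one of the 18 arrays. The Y-linked gene ZFY was also above background on all 18 arrays, whereas SRY, a testis-determining gene that muscle does not use, was on none.

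All levels below are normalized log2 signals and all changes are log2 Holstein minus cross-breed, so that a change of 1 is a 2-fold difference. A probe was called where the adjusted p (limma, Benjamini-Hochberg over 16354 probes) was under 0.05 and the change at least 2-fold. A probe counts as well above background on an array where the scanner software said so for 50% or more of its spots. Holstein values are given as lowest, median and highest of 13 animals, and cross-breed values in the order K7, K8, K10, K11 and K12. Levels of different genes are not compared with each other, since every probe has its own brightness.

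Of 16354 probes tested, 3361 were called, which is 20.6%. Holstein animals had the higher signal at 1777 of these probes (10.9% of those tested) and the lower signal at 1584 (9.69%). The median change over all probes was 0.010. Large differences lay mostly on the Holstein side: 578 probes were higher and 172 lower by more than 4-fold, and 116 were higher and 3 lower by more than 16-fold. At 2645 probes (16.2%) the ranges of both sets did not overlap. Of the called probes, 290 higher in Holstein were well above background on no cross-breed array, and 60 lower in Holstein were well above background on no Holstein array.

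The balance between higher and lower calls depended on the scaling. Higher calls made up 52.87% of the calls here, 34.91% after scaling each array to its 75th percentile (1299 higher, 2422 lower), and 3.67% with no normalization (315 higher, 8264 lower). These scalings moved the median of all probes to -0.118 and -1.04. In 971 genes with more than 1 tested probe, 388 had a called probe. In 328 of these the other probes were not all called, in 39 all probes were called in 1 direction, and in 21 genes probes were called in opposite directions, so that a single probe is not always a measure of its gene.

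PRM1, a protamine that packs the DNA of sperm heads, had the largest change on the array. In the Holstein animals its level was 11.5 in C17, 10.97 in C18, 17.8 in C20, 13.6 in C21, 16.5 in C22, 15.3 in C23 and 16.7 in C24. In the others it was 14.2 in C41, 8.1 in C44, 17.1 in C45, 13.7 in C46, 17.6 in C47 and 11.9 in C48. In the cross-breed animals it was 2.6, 2.3, 1.2, 2.1 and 1.8, which is not above background in any of the 5, so that every Holstein animal lay above every cross-breed animal. The change was 12.22 (SE 1.27, adjusted p = 7.37e-07). Set against the lowest signal that counted as above background on the cross-breed arrays (mean 2.26), Holstein was 3877-fold higher by set means. Folds given below as "at least" use this floor in the dimmer set. Brighter signals of other probes did not always count as above background, such as 4.29 at an ALB probe in K7. These folds therefore depend on a low floor and are not strict lower bounds. Holstein animals that shared a slide differed from each other, for example C47 and C48 (17.6 and 11.9) and C41 and C44 (14.2 and 8.1).

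**Figure D1:**
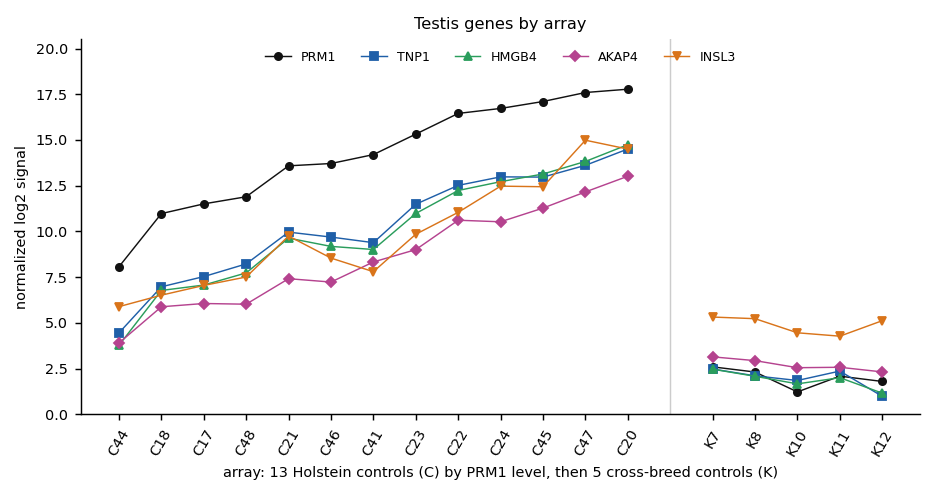
Normalized log2 signal (vertical axis) of 5 testis genes in each of the 13 Holstein controls, ordered by PRM1, and in the 5 cross-breed controls; each point is 1 animal's array and lines join the points of a gene. PRM1 ran from 8.1 in C44 to 17.8 in C20 and from 1.2 to 2.6 in the cross-breed animals, and the other 4 genes followed it across the Holstein animals.

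The 15 largest changes were taken, in each direction, among called genes that all arrays of the brighter set held above background. Toward Holstein, PRM1 was the first of these 15. Of the other 14 genes 13 had an r above 0.9 with PRM1 over the 13 Holstein arrays, and FABP4, described below, did not. They included the sperm chromatin proteins TNP1 (change 8.38, SE 1.28, adjusted p = 4.33e-05, at least 269-fold) and TNP2 (7.34), the testis heat shock proteins HSPB9 (9.02, at least 424-fold) and DNAJB8 (7.59, at least 165-fold), and HMGB4 (8.19, at least 224-fold), a chromatin protein of the germ line. Cilium and flagellum genes were DNAAF1 (7.73), which serves the assembly of dynein arms, LRRC23 (5.93, at least 59.6-fold) and AKAP4 (5.87, at least 58.5-fold), an anchor of the sperm tail sheath. DBIL5 (6.69), GSG1 (6.54), IQCF1 (5.57) and ACTL11 (5.49, at least 43.2-fold) also had an r above 0.9 with PRM1. AKAP4 was 3.9, 8.3 and 13.02 in Holstein and 3.1, 2.9, 2.5, 2.6 and 2.3 in cross-breed animals. For all of these C44 was the lowest Holstein animal and C20 the highest. MC1R, a melanocortin receptor best known from pigment cells, also belonged to the 15 (5.40, SE 1.01, adjusted p = 3.08e-04) and had a Pearson's r of 0.917 with PRM1 over the 13 Holstein arrays.

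A list of 79 spermatid and sperm genes was put together after these values had been seen, so that its counts describe and support nothing. The array held 67 of them, and 49 passed the filter on dim probes. Of these, 38 were higher in Holstein at their brightest probe, 0 were lower and 11 were not called (77.6% called against 20.6% of all probes). ODF2, a gene of the sperm tail counted as higher (4.15), had a second probe that was called lower (-1.26, adjusted p = 0.00368). The median change was 4.32, which stayed between 2.45 and 4.32 under every scaling and source of values tried. The summed signal of the list, on the log2 scale, was 11.3, 15.03 and 19.5 in Holstein and 11.1, 11.1, 10.4, 10.8 and 10.8 in cross-breed animals. PRM1 had its brightest probe, which is no measure of abundance between genes, and ODF1, a protein of the sperm tail (change 1.54, adjusted p = 0.0229), was above background in every animal of both sets. Not all such genes were there: PRM2, SPAM1 and CAPZA3 were above background on none of the 18 arrays. The number of list genes above background was 31 of 67 in C44 and 58 of 67 in C45 and in C47, against 16 to 27 in the cross-breed animals.

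MAEL, which protects germ cells from transposons, was 2.0, 7.6 and 11.9 in Holstein and 1.3 to 2.6 in cross-breed animals (change 5.74, SE 1.16, adjusted p = 5.85e-04). DDX25 (4.79) and TDRD6 (4.61) behaved alike, with C44 lowest and C20 highest. Among 11 tested genes of meiotic germ cells, 4 were higher, 1 was lower and 6 were not called (45.5% called against 20.6% of all probes), with a median of 1.24. The lower one was the cohesin STAG3 (-1.47), and its second probe was higher in Holstein by 4.34. INSL3, a hormone of Leydig cells, was 5.9, 9.7 and 14.99 in Holstein, highest in C47, and 5.3, 5.2, 4.5, 4.3 and 5.1 in cross-breed animals (change 4.99, SE 1.29, adjusted p = 0.00396). Among 9 tested genes of Leydig and Sertoli cells, 2 were higher, 1 was lower and 6 were not called (33.3% called; median 0.27). The lower one was SOX9, whose change lay between -3.01 and -0.83 over the other settings tried. Both of these lists were also made after the values had been seen.

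Over the 13 Holstein arrays, 238 of 16354 probes (1.46%) had a Pearson's r above 0.9 with PRM1. Of the 1777 probes called higher in Holstein 176 were among them, and of the 1584 called lower 0 were. They were 90 of the 116 probes higher by more than 16-fold and 216 of the 353 probes with an SD above 2 over the Holstein animals. These arrays share their slides and their normalization, and the correlations are given as a description. Without the 238 probes, 1605 probes were called higher and 1586 lower. Without the 6 Holstein animals whose PRM1 was above 15, 1625 were called higher and 1537 lower, and 82.18% of the calls remained; 29 spermatid and sperm genes were then still higher, with a median of 2.07. In the other 25 animals, whose arrays came from the same scanner as the Holstein arrays, PRM1 ran from 1.2 to 16.1 with a median of 9.0 and was above background in 21. Whether RNA of testis or other organs had entered these muscle samples, or samples had been exchanged, was not tested.

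**Figure D2:**
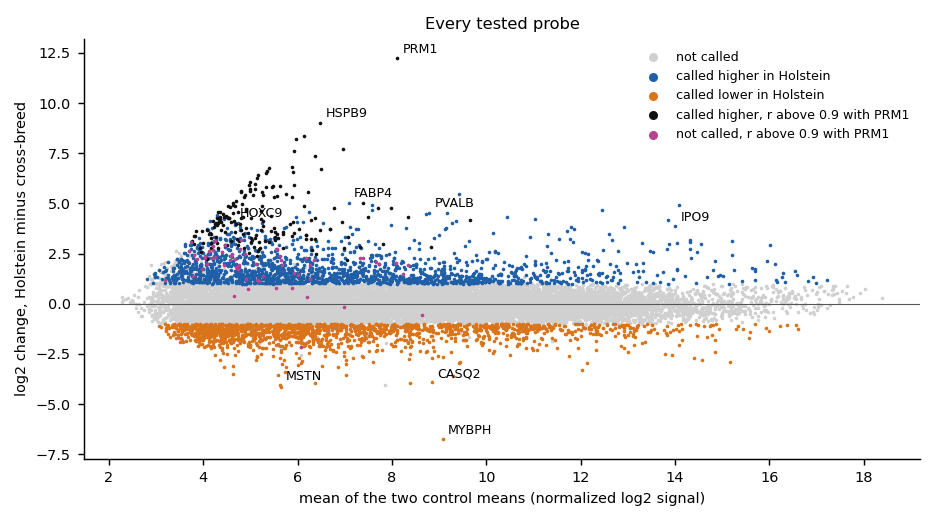
Change of every tested probe (vertical axis, log2 Holstein minus cross-breed) against the mean of both set means (horizontal axis, normalized log2 signal), coloured by call, with probes that had an r above 0.9 with PRM1 over the Holstein arrays in black where called higher and magenta where not called. Of 116 probes higher by more than 16-fold 90 are black, and on the lower side MYBPH stands alone at -6.77.

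Single Holstein animals also carried the genes of other organs, from lists made after the values had been seen. C17 had DNTT, the polymerase that diversifies T cell receptors in the thymus, at 14.6, against a Holstein median of 5.4 and 1.9 to 4.1 in cross-breed animals. Its CD8A (12.2), CD8B (12.98), CD3E (11.7) and the thymus protease PRSS16 (12.4) were the highest of the 18 as well. The summed signal of the thymus list was 16.1 in C17, 13.3 in C20 and 10.97 to 11.92 in cross-breed animals. RAG1, a defining thymus gene, was above background in 1 Holstein animal with 2.3 to 4.4 in Holstein and 2.1 to 2.6 in cross-breed animals. Of 16 tested thymus genes 1 was called higher (PRSS16, 3.11, adjusted p = 0.0286) and 1 lower (12.5% called against 20.6% of all probes). The lower one was FOXN1, whose change lay between -2.39 and -0.54 over the other settings tried. FOXN1 was not called without K7 or K8, among others. The call of PRSS16 was lost without K7, K10 or K11, with adjusted p of 0.0527, 0.058 and 0.0586, among others. ADA had the brightest probe of the list.

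Some genes of the adrenal gland were highest in C48 and C45. PNMT, which makes adrenaline, was 14.7 in C48 and 13.4 in C45, against 10.1 to 10.9 in cross-breed animals and a Holstein median of 10.8. The cortex enzymes CYP11B1 (9.1 and 8.4), CYP21A2 (10.2 and 8.8) and HSD3B1 (10.7 and 10.8) and the medulla genes DBH (11.2 and 10.2) and CHGB (12.4 and 10.97) were also highest in these animals, which lay on different slides. The summed signal of the adrenal list was 15.4 and 14.2 there, at most 12.3 in the other Holstein animals and 11.05 to 11.55 in cross-breed animals. The steroid genes STAR and CYP11A1 were raised in other animals too: STAR was 10.9 in C48, 9.8 in C45 and 10.1 in C47, and CYP11A1 was 8.1 in C48 and C45, 7.7 in C47 and 7.1 in C20. Of 10 tested members 0 were higher and 1 was lower (10% called against 20.6% of all probes). The lower one was the steroid gene regulator NR5A1 (-1.22, adjusted p = 0.00166), whose highest Holstein animal was C46. NR5A1 was well above background in only 1 Holstein and 1 cross-breed animal, so that its change rests on signals near background. C18 had the tendon genes TNMD (12.3) and COMP (11.7) at their highest, yet these also varied among cross-breed animals, from 4.1 to 9.9 and from 2.7 to 10.3. Of lists of pancreas (9 tested) and liver genes (10 tested) 2 each were higher and 0 lower (22.2% and 20% called, near the 20.6% of all probes), while the liver's ALB was above background on no control array at its brightest probe, in 1 Holstein animal at another and in 1 animal of each set at the third. The part of these organ genes in the other results was not tested.

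Of 25 tested genes of fat cells and lipid storage 11 were higher in Holstein, 0 were lower and 14 were not called, so that 44% were called against 20.6% of all probes. FABP4, the fatty acid binder of fat cells and one of the 15 largest changes, was 6.8, 9.9 and 11.3 in Holstein and 4.9, 6.4, 4.6, 5.2 and 1.7 in cross-breed animals (change 5.03, SE 0.73, adjusted p = 2.44e-05). Every Holstein animal lay above every cross-breed animal. Over the 13 Holstein arrays the r with PRM1 was 0.48 for FABP4, 0.66 for CIDEC, 0.65 for LIPE and 0.87 for ADIG, and from 0.02 to 0.54 for the other 7 called genes. ADIG, a small protein of fat cells, was higher by 2.33 (adjusted p = 0.0262), but by 1.11 (adjusted p = 0.191) without the 6 Holstein animals of high PRM1, and its call was also lost without K10, K11 or K12 (adjusted p of 0.0715, 0.0726 and 0.0554). Without those 6 animals 9 genes of the list were called higher, but PRM1 was between 8.1 and 14.2 in the 7 Holstein animals kept, and the part of the testis signal in the fat genes was not tested. CIDEC, a coat protein of lipid droplets, was 6.5, 9.3 and 10.97 against 5.2, 6.8, 4.8, 5.9 and 4.3 (change 3.71, SE 0.62, adjusted p = 1.02e-04), with K8 above the lowest Holstein animal. The lipase LIPE (1.65), the triglyceride enzyme DGAT2 (1.58), the droplet coat PLIN1 (1.40) and the fat cell regulator PPARG (1.12) were higher too. The fat hormone ADIPOQ was higher by 2.42 (adjusted p = 0.012), but by 1.88 with an adjusted p of 0.0602 without the 6 Holstein animals of high PRM1. The median change of the list was 0.58, against 0.010 over all probes, and turned to -0.53 without normalization, where all probes had a median of -1.04.

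FASN, the fatty acid synthase, was called at none of its 4 tested probes, with a change of 0.38 at the brightest and of -0.71, -0.28 and -0.95 at the others. More fat cells and more RNA per fat cell cannot be told apart in these samples, and the same holds for every cell type below. The summed signal of the fat list was 15.8, 16.2 and 16.4 in Holstein and from 15.69 in K10 to 15.995 in K11 among cross-breed animals, with the brightest probe that of AGPAT2, and its part in the other results was not tested.

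Of 21 tested genes of fatty acid oxidation and its regulation 4 were higher and 1 was lower, with a median of -0.06, so that 23.8% were called against 20.6% of all probes. The higher ones are known to answer to fasting or fatty acids. The list's called share was near that of all probes, and whether fasting had a part was not tested. ANGPTL4, an inhibitor of lipoprotein lipase that fatty acids induce, was 9.1, 11.3 and 14.1 in Holstein and 7.8, 7.8, 6.2, 6.7 and 8.0 in cross-breed animals (change 4.14, SE 0.69, adjusted p = 9.66e-05). PDK4, the kinase that shuts pyruvate out of the mitochondrion, was 13.1, 14.3 and 15.1 against 10.4, 10.6, 11.3, 11.4 and 11.7 (3.20, SE 0.27, adjusted p = 5.3e-08). The uncoupling protein UCP3 (3.25, SE 0.33) and the coactivator PPARGC1A (2.65, SE 0.40; 1.68 at a second probe) were higher too. For these 4 of the 21 genes the sets did not overlap, against 16.2% of all probes. The receptor PPARA was called lower (-1.06, adjusted p = 0.0396), and this call was lost without K8, K10, K11 or K12, with adjusted p of 0.0501, 0.0695, 0.107 and 0.0839, among others.

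Other members of the list were not called. CPT1B, the gate of fatty acids into mitochondria, had a change of -0.38 (adjusted p = 0.278), and CD36, a fatty acid carrier, of -0.02 (adjusted p = 0.935). Of 45 genes of the respiratory chain and citric acid cycle 1 was higher and 5 were lower (13.3% called against 20.6% of all probes; 3 lower without K7), with a median of 0.13 that turned to -0.51 without normalization. NDUFA4 was higher by 1.07 (0.99 without K12). Its call was also lost under quantile normalization, loess on pairs of arrays and no normalization, with a lowest change of 0.53. DLAT was lower by 1.22, and IDH3B was lower by 1.55 at its brightest probe, with a change of 0.65 at another. Of 19 genes of glycogen and glycolysis 0 were higher and 1 was lower (5.26% called), PHKG1 (-1.54), the catalytic subunit that activates glycogen breakdown. GBE1, the glycogen branching enzyme, had a change of -0.98 at its brightest probe, under 2-fold, and was called lower by 2.86 (adjusted p = 2.35e-07) at another. Their median of 0.16 turned to -0.15 under quantile normalization, -0.03 under loess on pairs of arrays and -0.53 without normalization. EHHADH, an enzyme of peroxisomal fat oxidation and one of the 15 largest changes toward cross-breed animals, was 2.4, 4.1 and 5.0 in Holstein and 7.2, 6.9, 7.3, 8.0 and 7.5 in cross-breed animals (-3.57, SE 0.35, adjusted p = 3.2e-07).

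The glucocorticoid and atrophy list held 28 tested genes, of which 8 were higher and 3 lower in Holstein (39.3% called against 20.6% of all probes). TSC22D3, a glucocorticoid-induced leucine zipper, was 5.1, 6.4 and 6.8 in Holstein and 3.2, 2.6, 4.2, 3.7 and 3.9 in cross-breed animals (2.63, SE 0.28, adjusted p = 7.65e-07). FKBP5, a chaperone of the glucocorticoid receptor, was 11.7, 12.9 and 13.9 against 10.9, 11.6, 11.5, 10.7 and 11.2 (1.68, adjusted p = 4.51e-05). HSD11B1, which regenerates active cortisol in tissue, was higher by 1.96 and the cell cycle inhibitor CDKN1A by 1.69. Under normexp background correction TSC22D3 (0.70) and HSD11B1 lost their call, and HSD11B1 and CDKN1A also lost it without normalization. The phosphatase DUSP1, another glucocorticoid target and an immediate early gene, was lower (-1.57, adjusted p = 3.05e-06). The atrophy ubiquitin ligases TRIM63 (0.99, adjusted p = 0.00956) and FBXO32 (-0.40, adjusted p = 0.13) stayed under 2-fold. NEDD4, another ubiquitin ligase, was lower at both of its tested probes, by 3.56 and 1.75. The list's median was 0.32, or -0.49 without normalization. Both sets are negative controls by the labels.

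**Figure D3:**
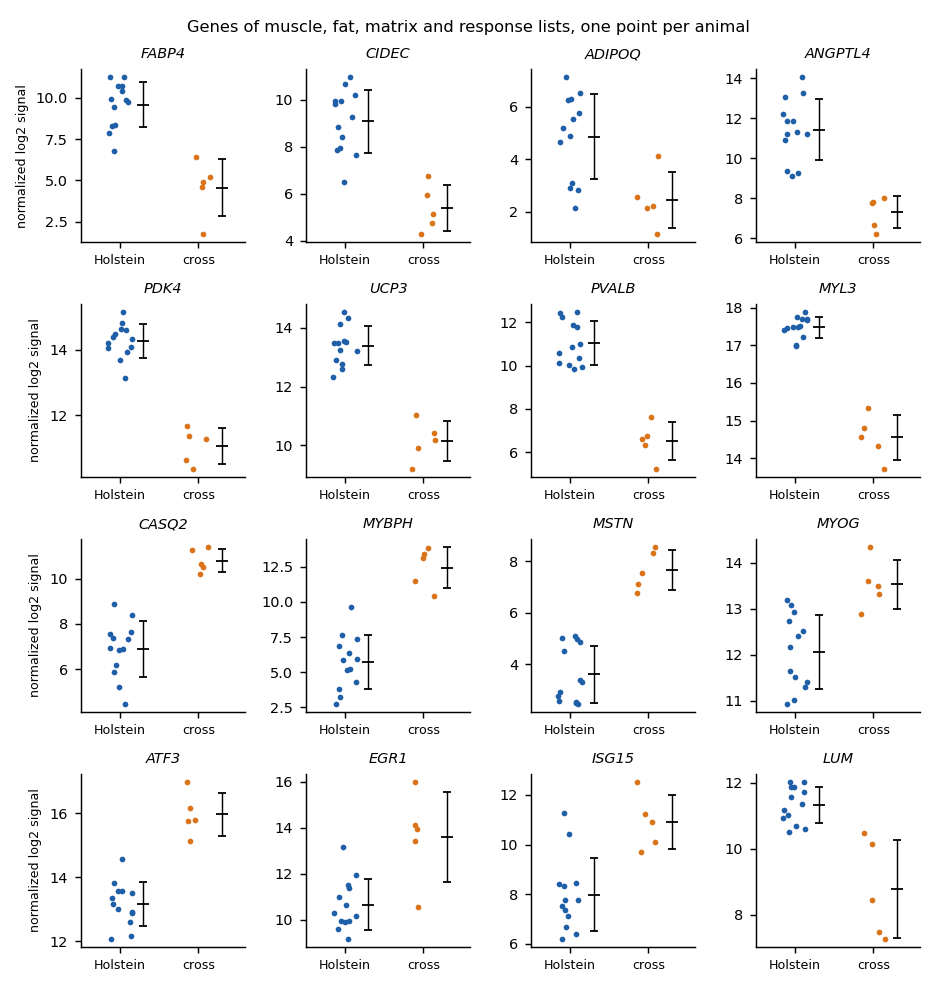
Normalized log2 signal (vertical axes, each with its own scale) of 16 genes in the 13 Holstein (blue) and 5 cross-breed controls (orange); each point is 1 animal and the bar beside the points is the mean ± SD. The mean is higher in Holstein for FABP4, CIDEC, ADIPOQ, ANGPTL4, PDK4, UCP3, PVALB, MYL3 and LUM and lower for CASQ2, MYBPH, MSTN, MYOG, ATF3, EGR1 and ISG15.

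The contractile genes split in both directions within each fibre type. PVALB, a calcium buffer of the fastest fibres, was 9.9, 10.9 and 12.5 in Holstein and 6.6, 7.6, 6.3, 6.8 and 5.2 in cross-breed animals (4.53, SE 0.48, adjusted p = 8.46e-07). The fast myosin MYH1 was higher by 1.64 (16.99, 17.3 and 17.7 against 15.3 to 16.1). Its second probe, brighter in both sets (Holstein median 17.9, cross-breed mean 17.1), was not called, with a change of 0.47 (adjusted p = 0.171). The fast myosin MYH4 was lower by 1.57 (adjusted p = 0.00608) and the fast troponin TNNT3 by 1.47 (adjusted p = 0.0124). The call of TNNT3 was lost without K7 (-1.07, adjusted p = 0.0594) and without the 6 Holstein animals of high PRM1 (-1.42, adjusted p = 0.0572). With all 43 arrays in 1 fit, the calls of MYH1 (adjusted p = 0.187), MYH4 (0.156) and TNNT3 (0.149) were lost. Of 12 tested fast-fibre genes 2 were thus higher and 2 lower (33.3% called against 20.6% of all probes), with MYH1 counted at its dimmer probe. The list's median of 0.53 turned to -0.02 under quantile normalization and -0.05 without normalization.

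Among slow-fibre genes the myosin light chain MYL3 was higher, at 16.99, 17.5 and 17.9 against 15.3, 14.8, 14.6, 13.7 and 14.3 (2.93, SE 0.20, adjusted p = 4.15e-09). CASQ2, the calcium-binding protein of the slow and cardiac sarcoplasmic reticulum, was lower, at 4.4, 6.9 and 8.9 against 10.2, 10.6, 10.5, 11.4 and 11.3 (-3.92, SE 0.54, adjusted p = 1.49e-05). The slow calcium pump ATP2A2 was lower by 1.75, yet its second probe had a change of 0.50 (adjusted p = 0.162), and the slow tropomyosin TPM3 was lower by 1.38. The slow myosin MYH7 had a change of 0.74 (adjusted p = 2.47e-04), under 2-fold. Of 11 tested genes 1 was higher and 3 were lower (36.4% called against 20.6% of all probes), with a median of 0.30 that turned to -0.24 without normalization. The sets did not overlap at any of the 5 called genes MYL3, CASQ2, ATP2A2, TPM3 and PVALB. Ranges did not overlap at 6 of 11 slow-fibre and 5 of 12 fast-fibre genes, against 16.2% of all probes.

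The largest change toward cross-breed animals was that of MYBPH, a myosin-binding protein of the thick filament. It was 2.7, 5.8 and 9.6 in Holstein and 11.5, 13.4, 13.9, 13.1 and 10.4 in cross-breed animals (-6.77, SE 0.90, adjusted p = 9.9e-06), and no Holstein animal reached the lowest cross-breed animal. Its relative MYBPHL went with it, at 5.6, 6.3 and 7.8 against 9.5, 11.2, 11.6, 11.1 and 8.4 (-3.94, SE 0.43, adjusted p = 1.21e-06). In the other 25 animals MYBPH ran from 3.9 to 12.8. Of 14 tested genes of energy buffering and cytosolic muscle proteins 4 were higher, namely FHL1 (1.53), the adenine nucleotide carrier SLC25A4 (1.43), the carbonic anhydrase CA3 (1.39) and the calcium pump inhibitor SLN (1.16), and CSRP3, a Z-disc sensor, was lower (-1.70). With all 43 arrays in 1 fit SLC25A4 (adjusted p = 0.113), CA3 (0.131) and SLN (0.0914) lost their call. SLN also lost its call under quantile normalization and under loess on the 18 controls. Without normalization all 4 higher genes lost theirs. Creatine kinase CKM had a change of 0.16 (adjusted p = 0.374). Of the 14, 35.7% were called against 20.6% of all probes, at 8 the ranges did not overlap against 16.2% of all probes, and the median was 0.62, or 0.04 without normalization.

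MSTN, which encodes myostatin, the secreted brake on muscle growth, was lower in Holstein. Its level was 2.5, 3.3 and 5.1 in Holstein, above background in 5 of 13, and 7.5, 7.1, 8.5, 6.8 and 8.3 in cross-breed animals, above background in all 5 (-4.06, SE 0.51, adjusted p = 5.5e-06). Every cross-breed animal lay above every Holstein animal, and the other 25 animals ran from 2.2 to 7.6. Of 30 tested growth signals 3 were higher and 5 lower, with a median of -0.24, so that 26.7% were called against 20.6% of all probes. The matrix proteoglycan DCN, which binds growth factors, was higher by 1.86 and the growth factor IGF1 by 1.14 (0.98 without K7 and 0.91 without K12, under 2-fold). IGF1 also lost its call under normexp background correction, scaling to the 75th percentile, quantile normalization and no normalization. Its lowest change was 0.03 and its highest adjusted p 0.943. The clearance receptor IGF2R was lower by 1.26, the activin and myostatin receptor ACVR2A by 1.24 and the ligand BMP4 by 1.28. Under normexp background correction ACVR2A (-0.65) lost its call. BMP4 lost its call there and under loess on pairs of arrays (-0.58 at the weakest). For IGF2R the sets lay apart, at 10.9, 11.4 and 12.3 against 12.8, 12.8, 12.9, 12.7 and 12.9.

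Of 19 tested genes of myogenesis and regeneration 1 was higher and 6 were lower in Holstein (36.8% called against 20.6% of all probes), and the median of -0.92 lay below 0 under every scaling. The acetylcholine receptor subunit CHRNA1 was 9.0, 9.8 and 10.2 in Holstein and 12.4, 11.2, 11.5, 11.8 and 11.4 in cross-breed animals (-1.99, SE 0.20, adjusted p = 6.64e-07). CHRNG, the fetal subunit, was lower by 1.78, the muscle transcription factor MEF2C by 1.56 and MYOG, which drives myoblast differentiation, by 1.46. MYOD1 (-1.47) and CHRND (-1.80) lost their call without K7, with adjusted p of 0.0563 and 0.0605, and MYOD1 also with all 43 arrays in 1 fit (0.0603). The one higher gene was the growth inhibitor CDKN1C (1.26, SE 0.33, adjusted p = 0.00432).

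**Figure D4:**
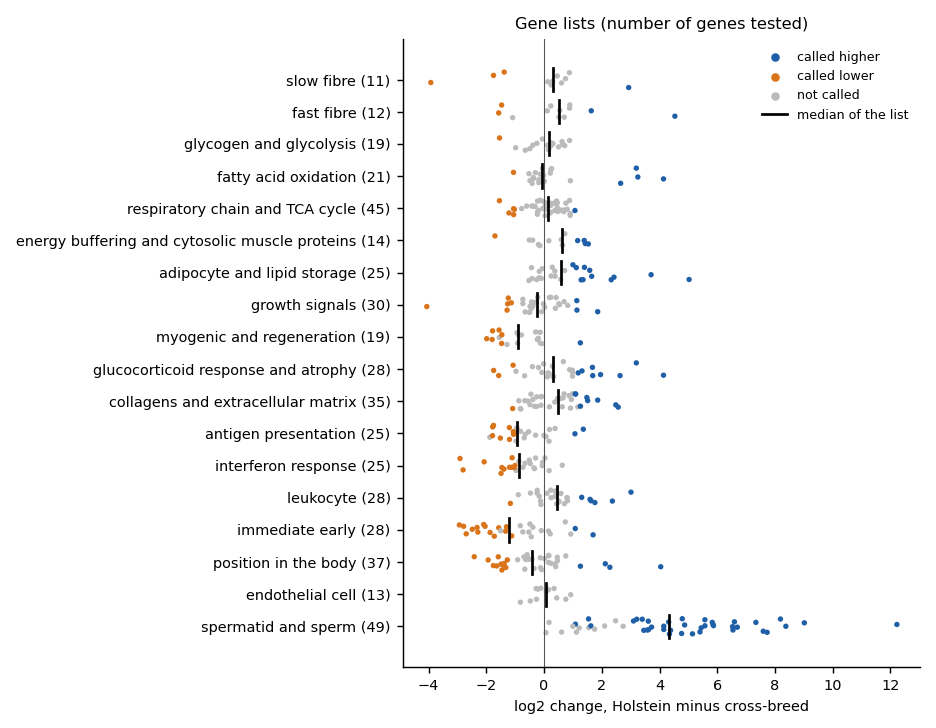
Change (horizontal axis, log2 Holstein minus cross-breed) of each tested gene of 18 lists; points are genes, blue called higher, orange called lower, grey not called, and the black bar is the list's median. Medians run from -1.21 for immediate early genes to 4.32 for spermatid and sperm genes, a list made after values had been seen; without normalization the positive medians drawn here fall and, except for spermatid and sperm genes and energy buffering, lie below 0.

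Immediate early genes, which cells switch on within minutes of stress or handling, showed the lowest median of all lists. Of 28 tested genes 2 were higher and 14 lower (57.1% called against 20.6% of all probes), with a median of -1.21, and 2 and 14 were also the counts under every other scaling, except 1 and 21 without normalization. ATF3 was 12.1, 13.2 and 14.6 in Holstein and 16.97, 16.2, 15.8, 15.7 and 15.1 in cross-breed animals (-2.79, SE 0.34, adjusted p = 4.1e-06). FOS was 11.2, 12.4 and 14.03 against 15.8, 15.4, 14.6, 14.9 and 14.5 (-2.49, SE 0.38, adjusted p = 4.53e-05), and IER5 (-2.70), BTG2 (-2.32), NR4A2 (-2.29) and EGR1 (-2.93) were lower too. EGR1 overlapped between the sets, as K12 (10.5) lay within the Holstein range of 9.2 to 13.2. FOSB, a partner of the same family, went the other way at 14.3, 15.8 and 16.7 against 15.3, 13.9, 13.4, 14.2 and 12.9 (1.70, adjusted p = 0.00303). Its second probe had a change of 0.74 (adjusted p = 0.00693), under 2-fold, and was not called. C23 was the highest Holstein animal for EGR1, ATF3, IER5, FOS and BTG2.

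Of 32 tested heat shock genes 2 were higher and 5 lower (21.9% called against 20.6% of all probes), with a median of -0.16. The small heat shock proteins HSPB7 (-1.73) and HSPB6 (-1.33) and the chaperone partner BAG3 (-1.11) were among the lower ones. HSPA1A, the inducible chaperone, was lower by 1.10 at its brightest probe and by 2.54 at another; the first fell under 2-fold without K7 (-0.98). Clock genes gave 2 higher and 4 lower of 19 (31.6% called; 4 and 2 without the 6 Holstein animals of high PRM1), with a median of 0.05, and BHLHE40 was lower by 1.69. Genes of amino acid shortage gave 3 higher and 2 lower of 18 (27.8% called; 4 lower without those 6 animals), with a median of 0.05, among them the asparagine synthetase ASNS (2.03, SE 0.30, adjusted p = 3.39e-05) higher and the transcription factor ATF5 (-2.67, SE 0.45, adjusted p = 1.2e-04) lower. SESN2, a stress-induced sestrin and the other lower gene, had a change of -1.05 at its brightest probe and was called higher by 1.02 (adjusted p = 0.00656) at another.

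Of 25 tested interferon-induced genes 0 were higher and 11 lower in Holstein (44% called against 20.6% of all probes), and the median was -0.87. The ubiquitin-like ISG15 was 6.2, 7.8 and 11.3 in Holstein and 12.5, 10.1, 11.2, 10.9 and 9.7 in cross-breed animals (-2.91, SE 0.68, adjusted p = 0.00197), so that the sets overlapped. The chemokine CXCL10 was lower by 2.08, the ISG15-activating enzyme UBA7 by 1.49 and the antiviral RSAD2 by 1.46. Without K7, 6 genes of the list were called lower. GBP1, an interferon-induced GTPase and one of the 15 largest changes toward cross-breed animals (-3.14, adjusted p = 0.017), was also not called without K7 (-2.74, adjusted p = 0.0559).

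Antigen presentation gave 2 higher and 9 lower of 25 tested genes (44% called against 20.6% of all probes), with a median of -0.94 that lay below 0 under every scaling. CIITA, the master regulator of class II molecules, was 9.9, 10.9 and 12.2 in Holstein and 13.4, 12.9, 12.4, 12.4 and 12.2 in cross-breed animals (-1.78, SE 0.30, adjusted p = 1.24e-04). BOLA-DMB (-1.78) and BOLA-DMA (-1.51), which load peptides on class II, and TAPBP (-1.20), which does so on class I, were lower, whereas the protease CTSS was higher by 1.36. PSME1, a subunit of the proteasome activator, was lower by 1.05 at its brightest probe, while another of its probes was called higher by 2.33. BOLA-NC1, a class I gene, differed within both sets instead, at 6.3, 12.1 and 14.6 in Holstein and 8.4, 14.5, 8.8, 13.2 and 9.7 in cross-breed animals (0.38, adjusted p = 0.847).

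Of 28 tested leukocyte markers 6 were higher and 1 was lower (25% called against 20.6% of all probes), and the median was 0.44, or -0.68 without normalization. The neutrophil proteins S100A9 (3.01), S100A8 (2.37) and S100A12 (1.59) and the macrophage receptors CD163 (1.63) and MRC1 (1.30) were higher. S100A8 was 5.1, 6.1 and 9.7 in Holstein and 4.6, 4.2, 3.5, 4.1 and 3.6 in cross-breed animals, with C17 highest. The summed signal of the leukocyte list was 12.3, 13.3 and 15.2 in Holstein, where LAPTM5 had its brightest probe, and 11.9 to 13.4 in cross-breed animals, and its part in the interferon and antigen results was not tested. Haemoglobin HBA was higher by 1.67 (8.0, 8.6 and 10.99 against 6.8 to 7.8), the 1 called of 5 tested red cell genes (20% called, near the 20.6% of all probes). Of 13 endothelial cell genes limma called 0, with an unadjusted p under 0.05 at 4 of them and a median of 0.08 (-0.10 after scaling to the 75th percentile, -0.03 under quantile normalization and -1.02 without normalization). Of all probes, 48.4% had even an adjusted p under 0.05 at any fold, so that the 4 genes tell little.

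Of 35 tested genes of collagens and matrix 8 were higher in Holstein, 1 was lower (MMP14, -1.09) and 26 were not called, with a median of 0.47, or -0.52 without normalization. The called share was 25.7% against 20.6% of all probes. The proteoglycan LUM was 10.5, 11.4 and 12.02 in Holstein and 7.3, 10.5, 8.5, 10.1 and 7.5 in cross-breed animals (2.57, SE 0.44, adjusted p = 1.24e-04), and the collagen cross-linker LOX 8.4, 9.2 and 10.5 against 6.9, 8.2, 6.0, 6.4 and 6.0 (2.48, SE 0.33, adjusted p = 1.11e-05). The collagen COL3A1 was higher by 1.51 and ASPN by 1.48. K8 was the highest cross-breed animal for LUM, LOX, DCN, COL3A1 and ASPN, and without it 14 genes of the list were called higher. Fibroblast markers gave 5 higher and 0 lower of 11 (45.5% called; 3 higher without K10 or K12; median 0.92, or 0.06 without normalization), and smooth muscle 1 higher and 3 lower of 12 (33.3% called; median -0.35), while the nerve list gave 1 higher, MAL (2.15), of 11 (9.09% called). COL22A1, a collagen of the muscle-tendon junction, was lower by 3.10 (adjusted p = 0.0288) but ranged from 3.4 to 11.1 in Holstein, highest in C18, and from 4.1 to 10.6 in cross-breed animals. It was not called without K7 (-2.62), K8 (-2.99) or K12 (-2.46), among others.

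Genes that keep the position of a cell along the limb also differed, although every sample is labelled as the same muscle. HOX genes are used in blocks along the body and the limb, those of high number farthest out. HOXA9 (0.16, adjusted p = 0.493) and HOXA10 (0.01, adjusted p = 0.972) lay between 10.1 and 11.7 in all 18 animals and were not called. HOXA11 was 7.1, 8.1 and 9.6 in Holstein and 10.3, 9.8, 11.8, 10.2 and 10.2 in cross-breed animals (-2.42, SE 0.38, adjusted p = 5.96e-05), and HOXA13 6.4, 7.3 and 7.9 against 8.7, 8.5, 10.3, 8.5 and 9.3 (-1.76, SE 0.26, adjusted p = 3.55e-05), with no overlap at either gene.

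HOXC9 went the other way, at 6.1, 6.7 and 7.3 in Holstein and 3.2, 3.9, 2.5, 2.3 and 1.4 in cross-breed animals, above background in 13 of 13 and 0 of 5 (4.04, SE 0.28, adjusted p = 6.04e-09, at least 15.6-fold). MEIS1 (2.28) and MEIS2 (2.12), cofactors of the upper limb, were higher and TBX3 was lower (-1.94). HOXC6 was higher by 1.26. TBX5, which marks the foreleg, was above background in 2 Holstein and 2 cross-breed animals, and PITX1, which marks the hindleg, was 4.7 to 6.4 in Holstein and 6.3 to 7.6 in cross-breed animals (-1.46, adjusted p = 1.6e-04). Of 37 tested position genes 4 were higher and 11 lower (40.5% called against 20.6% of all probes, median -0.42). In the other 25 animals HOXA11 ran from 1.4 to 6.4 and HOXA13 from 1.2 to 4.4, below all 18 controls, whereas HOXC6 ran from 6.8 to 10.8, above all of them.

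**Figure D5:**
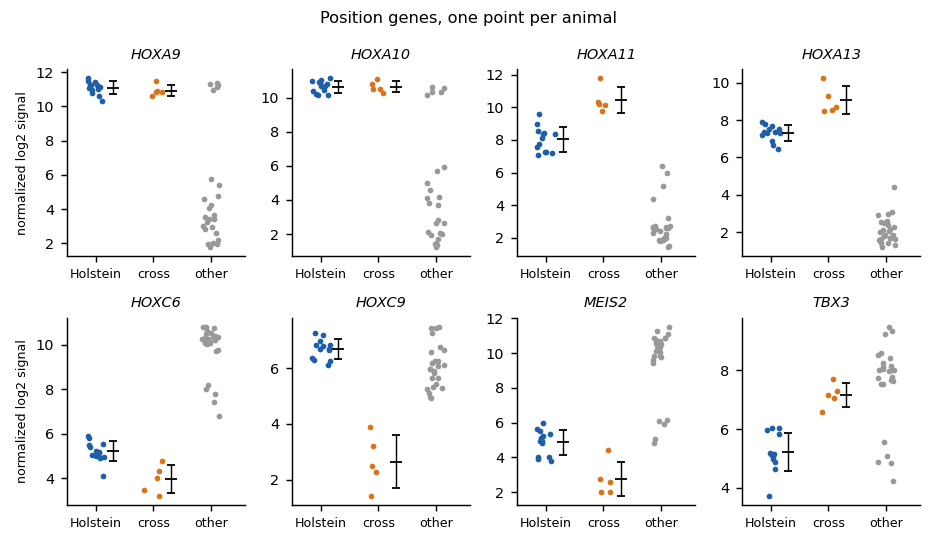
Normalized log2 signal (vertical axes, each with its own scale) of 8 position genes in the 13 Holstein (blue), 5 cross-breed (orange) and 25 other animals (grey); each point is 1 animal and the bar is the mean ± SD of a control set. HOXA9 and HOXA10 lie between 10.1 and 11.7 in both control sets, HOXA11 and HOXA13 lie lower and HOXC9 higher in Holstein than in cross-breed animals, and most of the other animals lie apart from both for HOXA genes.

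IPO9, an importin that carries proteins into the nucleus and a marker gene of the study, was 15.5, 15.9 and 16.5 in Holstein and 12.3, 12.3, 11.1, 12.8 and 11.9 in cross-breed animals (3.85, SE 0.21, adjusted p = 5.67e-10). The study's classifier used IPO9 and PCCB. PCCB and the genes of the study's qRT-PCR validation, 11 in all, stayed under 2-fold. Among the validation genes AMPD1 was at -0.19, DDIT4L at -0.14, GLUL at 0.29 and S100B at 0.62. SELENOP, which carries selenium in plasma, was 13.6, 13.95 and 14.3 against 12.3, 12.4, 12.2, 12.4 and 12.3 (1.56, SE 0.11, adjusted p = 9.31e-09). In its list of antioxidant and metal-binding genes 6 were higher and 2 lower of 32 (25% called against 20.6% of all probes; median 0.41, or -0.43 without normalization), among them CYP1B1 (3.15), a monooxygenase. Of 9 calpain genes limma called 0, with an unadjusted p under 0.05 at 5 of them (1 lower after scaling to the 75th percentile and 3 lower without normalization). An adjusted p under 0.05 at any fold was reached by 48.4% of all probes. Of 82 ribosomal proteins 10 were higher and 2 lower (14.6% called against 20.6% of all probes; median 0.33, or -0.28 without normalization), among them RPL27 (2.08) and RPL10L (4.13), a testis paralog that followed PRM1 (r = 0.95). Of 39 proteasome genes 1 was higher and 4 were lower (12.8% called; median -0.15).

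Other large changes toward cross-breed animals were those of enzymes and signalling genes. FECH, the last enzyme of haem synthesis, was 2.4, 4.6 and 6.3 in Holstein and 7.7, 8.1, 8.8, 8.8 and 8.3 in cross-breed animals (-3.97, SE 0.55, adjusted p = 1.5e-05). MAPK14, the stress kinase p38, was 3.0, 4.0 and 5.4 against 7.2, 7.0, 7.4, 8.0 and 7.7 (-3.39, SE 0.29, adjusted p = 7.64e-08). OTUD1, a deubiquitinating enzyme, was 9.4, 10.2 and 12.5 against 14.4, 13.7, 13.7, 13.8 and 12.9 (-3.30, SE 0.39, adjusted p = 2.74e-06). No Holstein animal reached a cross-breed animal at these 3 genes. The pseudogene LOC616995 (-4.15), EPDR1 (-3.15), SCFD2 (at least 8.92-fold lower in Holstein) and AKIRIN1 (at least 8.69-fold lower) completed the 15 largest. Under normexp background correction SCFD2 (-0.83) and AKIRIN1 (-0.88) fell under 2-fold and lost their call.

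Animals of 1 set varied more among Holsteins. The median SD per probe was 0.409 over the 13 Holstein and 0.335 over the 5 cross-breed animals, and an SD above 1 was found at 8.46% and 2.74% of probes. The intraclass correlation by slide was 0.079 among the Holstein arrays. Variable genes were ranked among probes with a mean of 8 or more over all control arrays. In Holstein the most variable of these were the testis genes DNAAF1, TNP1, TNP2, HSPB9 and INSL3, with POLR1H, IFI47 and BOLA-NC1. HMGB4 (SD 3.23), DNAJB8 (SD 3.21), DBIL5 (SD 3.10) and GSG1 (SD 3.10) varied more than INSL3 (SD 3.02) but had a mean below 8. POLR1H, a polymerase subunit, was 1.1, 10.3 and 11.5 in Holstein, and the interferon-induced GTPase IFI47 was 2.3, 10.0 and 11.4. POLR1H was 11.2, 8.6, 10.1, 11.04 and 11.4 in cross-breed animals, and neither it (adjusted p = 0.384) nor IFI47 (adjusted p = 0.828) differed by the test between the sets.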

How the data were processed

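Biceps brachii RNA of 43 cattle was measured on single-colour Agilent arrays, and 18 negative controls were compared. The authors deposited the scanner's processed signal intensity for each spot, which the scanner software had already background-subtracted. A series matrix of normalized intensities, deposited as the authors' processed data, was taken to log2 and used only as an alternative. Signals were taken to log2, outlier spots were left out, arrays were normalized by cyclic loess over all 43, and spots were averaged per probe. Probes below 4 on 30 or more arrays were removed (5121 of 21475). The 18 controls were fitted with limma 3.58.1 in R 4.3.3, which was tested on simulated data. Breed is from the study's text. Probes were named through RefSeq's gene table (ARS-UCD2.0) where they matched, and 4983 of 21475 kept the file's name only. A listed gene is represented by its brightest probe, except MYH1, whose counted probe was dimmer than another in both control sets. Named genes are the 15 largest changes in each direction among called genes that all arrays of the brighter set held above background, up to 6 called genes with the largest changes in each list and all marker genes of the study. The 8 genes most variable in Holstein, among probes with a mean of 8 or more over the 18 arrays, were named too. Other genes named, among them members that were not called and those of single animals, were chosen after their values were seen. The members and the lists were chosen with earlier results of these data known. Alternatives covered background correction, normalization, filters, slide and scan day as blocks, and each animal and slide left out.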

Additional observations from a re-analysis of the deposited data

Results flagged for a closer look

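Among the 5 cross-breed animals, 1 animal lay far from the other 4 at 8 of 183 probes looked at, where chance alone marks about 1 in 20 groups. K10 was high for HOXA11 (11.805, nearest 10.31) and RPS27L (11.807, nearest 11.148) and low for GBP5 (2.443, nearest 7.06). K8 was high for GSTM3 (12.808, nearest 11.19) and OGN (4.111, nearest 2.508). K11 was low for IFI47 (4.307, nearest 9.462) and NR4A2 (11.377, nearest 12.183), and K12 was low for AIF1 (5.208, nearest 6.656). In the animals outside the comparison, PRM1 was above background in 21 of 25, whereas it was in 0 of the 5 cross-breed controls.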

How the results depend on the processing

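Against 1777 higher and 1584 lower probes, normexp background correction gave 827 and 563, scaling to the 75th percentile 1299 and 2422, and no normalization 315 and 8264. In the last, 274 calls turned their sign. Every other setting kept both counts within 1.5 times, and 40.61% (normexp) to 98.24% (loess on the 18 controls) of calls remained under the other normalizations and background corrections, 56.5% without normalization among them. Leaving out each cross-breed animal gave 1627 to 1734 higher and 1528 to 1594 lower probes, each Holstein animal 1728 to 1893 and 1536 to 1621, and each Holstein slide 1709 to 1957 and 1536 to 1639. Of 169 named genes called, 79 kept their call in every setting, 90 lost it in some, and 3 turned without normalization: RORA (-0.061), OGN (-0.078) and SST (-0.225). Normexp took the call, among others, from TSC22D3 (0.702), S100A9 (0.655), ATF5 (-0.976), RSAD2 (-0.826) and TBX3 (-0.846). The spike-in difference was -0.8523 before normalization and 0.0992 to 0.1735 with each cross-breed animal left out. The difference in the share of spots above background was -0.5232 to 2.1594 with each left out, -0.5232 being without K7. No paired analysis was possible because the control sets share no replicate numbers. The cause of these shifts was not tested. With 5 cross-breed arrays, genes near background have little precision.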

Other observations

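Further listed genes differed between the sets. In amino acid metabolism the transporter SLC7A5 was higher in Holstein by 2.21 and the pseudokinase TRIB3 by 1.82. Among antioxidant genes the glutathione transferase GSTA1 was higher by 3.03 (adjusted p = 0.00847), but by 2.25 with an adjusted p of 0.0982 without the 6 Holstein animals whose PRM1 was above 15. Ribosomal RPS26 (1.73), RPS27L (1.68) and RPL34 (1.53) were also higher, the call of RPL34 being lost with all 43 arrays in 1 fit (adjusted p = 0.151). In smooth muscle the kinase MYLK was higher by 1.36, and SMTN (-1.12) and the pericyte receptor PDGFRB (-1.11) were lower. These changes are normalized log2 Holstein minus cross-breed from the same limma model.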
